A study of Saccharomyces cerevisiae with 12 samples.

Results

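Budding yeast carries a set of genes for regulators with C2H2 zinc fingers that bind related, guanine-rich DNA elements and act in stress, nutrient limitation and glucose repression. A total of 10 of these genes are described here, chosen by their systematic names, and all 10 were found among the 6100 genes of the table. They are USV1 (YPL230W), RGM1 (YMR182C), COM2 (YER130C), MSN2 (YMR037C), MSN4 (YKL062W), GIS1 (YDR096W), RPH1 (YER169W), MIG1 (YGL035C), MIG2 (YGL209W) and MIG3 (YER028C). RNA of the strain delUSV1, which lacks USV1, was measured at 0, 2, 5, 7 and 9 hours and at 1 day, and RNA of the wild type DBY8778 at 0, 3, 5, 7 and 9 hours and at 1 day. Each of the 12 samples gave 1 spotted 2-colour array against a common label, "reference", whose source the labels do not give. The labels call the whole course stationary phase, state neither the medium nor the event from which the hours count, and name no further allele in either strain. No time was repeated within a strain, so the tests use neighbouring times or the 2 strains in place of replicate cultures, and no p-value measures the spread between cultures.

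When glucose runs out, the kinase Snf1 inactivates the repressor Mig1, and genes for other carbon sources are released. At the same time a fall in protein kinase A activity lets Msn2 and Msn4 enter the nucleus and activate genes with stress response elements, while the kinase Rim15 acts on Gis1 and on genes with post-diauxic shift elements. Much of this control works on the proteins, through phosphorylation and export from the nucleus, and the arrays measured transcripts only.

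Values are log2 ratios centred to a median of 0 on each array. No label states which way the ratio runs, and it was read as sample over reference, which is likely and not known. This choice rests on features of the data. At each of the 5 shared times USV1 read lower in the deletion than in wild type, as did 2.49% of genes, and all 129 measured cytosolic ribosomal protein genes were lower at the late times in each strain, where such genes are known to be shut down. The stress genes HSP12, HSP26 and CTT1 also read higher late than early in both strains. The sign of USV1 between the strains is therefore no finding. Nor are the late signs of the ribosomal protein genes, HSP12, HSP26 and CTT1. No 2 arrays correlated below -0.0713 over all genes. A centred ratio gives the share of a transcript relative to the median gene, and a change in RNA per cell cannot be told apart from it. The arrays held 5931 to 6085 genes each, and 8 of the 10 zinc finger genes had a value on all 12. MIG1 had none in wild type at 9 hours and MIG2 none in wild type at 7 hours.

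Late times (7 hours, 9 hours and 1 day) were compared with early times (0 hours and 2 or 3 hours) with limma over all genes, leaving out the 5-hour arrays. Values of a gene at the early or late times are given in that order of time. At 5 hours the strains stood at different points of the expression shift. Over all genes, r between the deletion at 5 hours and wild type was 0.907 for wild type at 7 hours and 0.478 for wild type at 5 hours. The 9 zinc finger genes other than USV1 had r = 0.297 between the 5-hour arrays, and the 8 of them measured at both times had r = 0.934 between the deletion at 5 hours and wild type at 7 hours. These correlations describe single arrays and share the reference.

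Averaged over the strains, 4 of the 10 zinc finger genes rose late (USV1, RGM1, MSN4 and GIS1) and 1 fell (MSN2), at an adjusted p under 0.05. COM2, RPH1, MIG1, MIG2 and MIG3 did not pass. The average for USV1 includes its spot in the deletion, which lacks the gene. Over all 5698 genes tested 54.7% passed, 27.6% higher and 27.1% lower, so the 5 of 10 that passed is close to that background. The median change of the 10 was 0.36, against 0.06 for all genes.

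**Figure D1:**
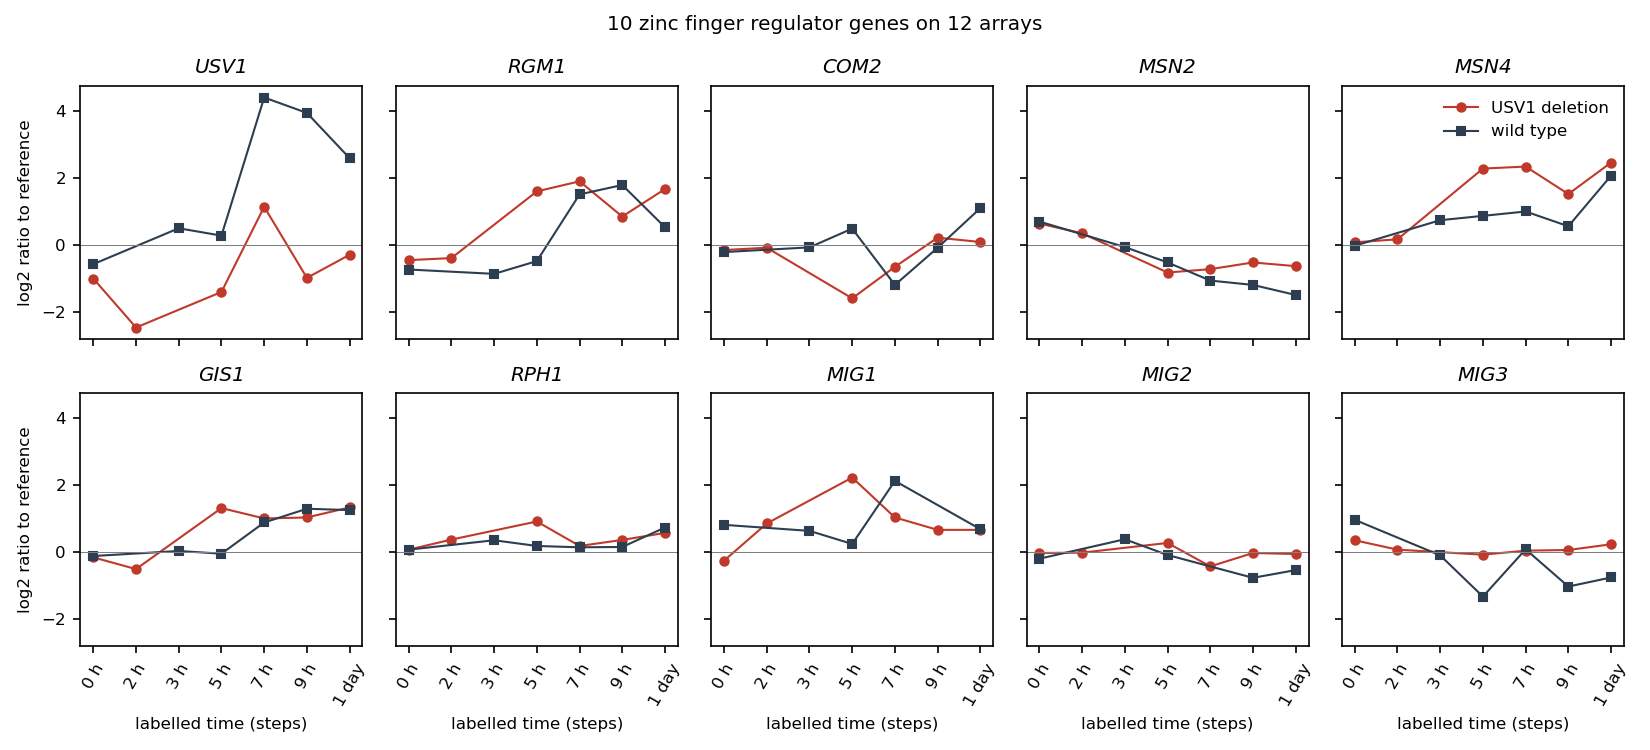
Centred log2 ratio to the reference (vertical axis) of each gene at each labelled time (horizontal axis, steps not to scale), with the USV1 deletion as red circles and wild type as dark squares, 1 array per point. USV1 reaches 4.40 in wild type at 7 hours, RGM1, MSN4 and GIS1 end above their start in both strains, MSN2 ends below it, and RPH1 stays between 0.08 and 0.92.

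USV1 itself encodes a regulator of genes for growth on non-fermentable carbon and for the cell wall. Its spot read -1.0 and -2.46 at the early times, -1.40 at 5 hours, and 1.14, -0.98 and -0.29 at the late times in the deletion. In wild type it read -0.57 and 0.50 at the early times, 0.28 at 5 hours, and 4.40, 3.94 and 2.59 at the late times. In both strains each late array was above both early arrays, as for 33.6% of all genes in the deletion and 31.7% in wild type, but the late arrays of the deletion overlapped the early arrays of wild type. In wild type USV1 rose by 3.68 on the log2 scale (SE 0.63, adjusted p = 0.00041, limma, 3 late and 2 early arrays), a 12.8-fold change that ranked at place 62 from the top of 5698 genes. In the deletion the same spot rose by 1.69 (SE 0.63, adjusted p = 0.045, limma), although the strain lacks the gene. That call was lost in 10 of 17 alternatives, among them leaving out the 7-hour array (1.09, adjusted p = 0.1791) or the 2-hour array (0.96, adjusted p = 0.393). What the spot binds in the deletion was not tested.

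The late change of USV1 differed between the strains by -1.99 (deletion minus wild type, 95% interval -3.89 to -0.09), the lowest estimate among the 5698 genes, with adjusted p = 0.955 by limma. It was 0.34 after quantile normalization and 0.09 after scaling each array to a common spread, and the cause of this was not tested. Over the 5 shared times the deletion minus wild type difference of USV1 averaged -2.63 (95% interval -3.92 to -1.35), also the lowest estimate of the 6062 genes tested, and did not pass (adjusted p = 0.814, limma). Being lowest is no finding for the deleted gene, whose sign also served to read the direction of the ratio.

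RGM1 is the paralogue of USV1, and its transcript rose late in both strains. In the deletion RGM1 read -0.45 and -0.39 at the early times, 1.60 at 5 hours, and 1.90, 0.85 and 1.67 at the late times. In wild type it read -0.73 and -0.86 at the early times, -0.48 at 5 hours, and 1.51, 1.79 and 0.53 at the late times. All 6 late arrays lay above all 4 early arrays, as they did for 20.2% of all genes. The rise was 1.98 on the log2 scale over both strains (SE 0.27, adjusted p = 2.9e-05, limma), 1.89 in the deletion (SE 0.39) and 2.07 in wild type (SE 0.39). The difference between these changes was -0.18 (95% interval -1.34 to 0.99). At 5 hours wild type read near its early values, whereas the deletion read within its late range.

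COM2 is known for the transcriptional response to sulfite, and its late arrays overlapped its early arrays in each strain. In the deletion COM2 read -0.15 and -0.08 at the early times, -1.59 at 5 hours, and -0.65, 0.22 and 0.09 at the late times. In wild type it read -0.21 and -0.07 at the early times, 0.49 at 5 hours, and -1.19, -0.08 and 1.10 at the late times. Its lowest value came at 5 hours in the deletion and at 7 hours in wild type, and the arrays of 9 hours and 1 day were back within or above the early range. The late change was 0.04 (SE 0.35, adjusted p = 0.927, limma), and its sign turned in 5 of 17 alternatives.

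MSN2 and MSN4 encode partly redundant activators of the general stress response, and their transcripts moved apart. In the deletion MSN2 read 0.64 and 0.35 at the early times, -0.82 at 5 hours, and -0.72, -0.52 and -0.63 at the late times. In wild type MSN2 read 0.70 and -0.06 at the early times, -0.52 at 5 hours, and -1.06, -1.19 and -1.49 at the late times. Every late array lay below every early array, as for 20% of all genes, and MSN2 fell by 1.34 on the log2 scale over both strains (SE 0.21, adjusted p = 9.3e-05, limma), a 2.54-fold change. It fell by 1.12 in the deletion (SE 0.30, adjusted p = 0.0083) and by 1.57 in wild type (SE 0.30, adjusted p = 0.00095) in the same limma fit. The call in the deletion was lost without its 0-hour array (-0.97, adjusted p = 0.0959).

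In the deletion MSN4 read 0.08 and 0.17 at the early times, 2.28 at 5 hours, and 2.34, 1.52 and 2.46 at the late times. In wild type MSN4 read -0.02 and 0.74 at the early times, 0.87 at 5 hours, and 1.0, 0.56 and 2.07 at the late times. The deletion had a clear step between 2 and 5 hours, and wild type showed one only at 1 day, with the 9-hour array below the 3-hour array. MSN4 rose by 1.42 over both strains (SE 0.30, adjusted p = 0.0011, limma), and this call was lost after quantile normalization (0.78, adjusted p = 0.0664) and with the 5-hour arrays counted as early (0.97, adjusted p = 0.091). Within strains it rose by 1.98 in the deletion (SE 0.42, adjusted p = 0.002), while the estimate of 0.85 in wild type (SE 0.42, adjusted p = 0.127) did not pass. That the strains differ is not shown by this: the difference of the changes was 1.13 (95% interval -0.15 to 2.41, adjusted p = 0.955, limma).

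GIS1 and RPH1 encode a pair of related proteins with a jumonji domain, and Gis1 acts on genes with post-diauxic shift elements. In the deletion GIS1 read -0.15 and -0.50 at the early times, 1.32 at 5 hours, and 1.01, 1.04 and 1.34 at the late times. In wild type it read -0.11 and 0.04 at the early times, -0.04 at 5 hours, and 0.89, 1.30 and 1.26 at the late times. Once up, GIS1 stayed within a narrow band, from 1.01 to 1.34 in the deletion late and from 0.89 to 1.30 in wild type late. It rose by 1.32 over both strains (SE 0.20, adjusted p = 5.7e-05, limma), by 1.46 in the deletion and by 1.19 in wild type (SE 0.28 each), and the call over both strains held in all 17 alternatives.

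RPH1, whose product is a histone demethylase and a repressor of the photolyase gene PHR1, read from 0.08 to 0.92 in the deletion and from 0.08 to 0.74 in wild type over the 6 arrays of each. The highest value was that of the deletion at 5 hours and the next highest that of wild type at 1 day. The late change of RPH1 was 0.14 (95% interval of the estimate within each strain -0.47 to 0.77 in the deletion and -0.49 to 0.75 in wild type), with an adjusted p = 0.586 by limma over both strains, and it turned to -0.08 after quantile normalization.

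**Figure D2:**
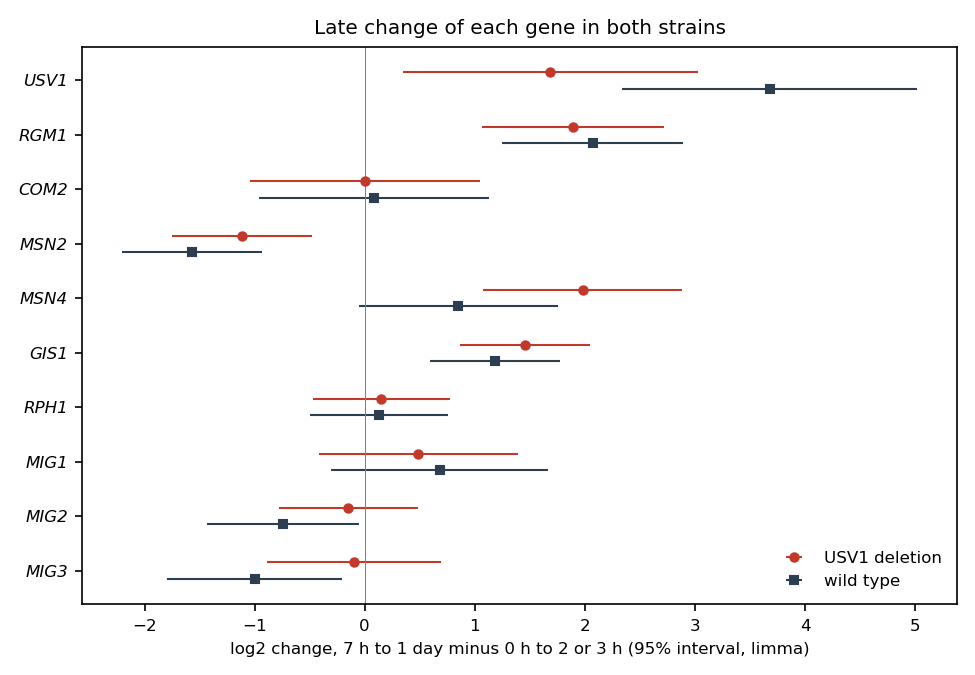
Late minus early change in log2 ratio (horizontal axis) of each gene, with the USV1 deletion as red circles above wild type as dark squares. Bars are 95% intervals from limma over 3 late and 2 early arrays per strain. MIG1 and MIG2 had 2 late arrays in wild type. The intervals of USV1, RGM1, MSN2 and GIS1 exclude 0 in both strains, that of MSN4 in the deletion only, and those of MIG2 and MIG3 in wild type only, where the adjusted p was 0.0816 for MIG2 and 0.0454 for MIG3.

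The 3 Mig repressors bind guanine-rich sites upstream of glucose-repressed genes, and Mig1 is the main one of them. In the deletion MIG1 read -0.25 and 0.86 at the early times, 2.23 at 5 hours, and 1.04, 0.67 and 0.67 at the late times. In wild type MIG1 read 0.82 and 0.64 at the early times, 0.25 at 5 hours, 2.13 at 7 hours and 0.69 at 1 day. Among the arrays with a value each strain had a single high one, at 5 hours in the deletion and at 7 hours in wild type. Wild type had no value at 9 hours, and at 1 day the deletion minus wild type difference was -0.02. The late change was 0.58 (SE 0.31, adjusted p = 0.127, limma) and did not pass. Without the 1-day array of wild type it was 0.94 over both strains and 1.40 in wild type. Those 2 estimates rest on the 7-hour array as the only late value of wild type. After quantile normalization the change over both strains was -0.07.

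MIG2, the paralogue of MIG3, encodes a repressor that joins Mig1 at shared targets. In the deletion MIG2 read -0.02, -0.01, 0.28, -0.42, -0.02 and -0.05 from 0 hours to 1 day. In wild type MIG2 read -0.19, 0.39 and -0.08 at 0, 3 and 5 hours, then -0.76 at 9 hours and -0.53 at 1 day. The 2 late arrays with a value lay below the early ones in wild type, as for 30.6% of all genes there. In the deletion the 9-hour array tied with the 0-hour array, and 30.3% of all genes had late arrays below the early ones. The late change of -0.45 (SE 0.22, adjusted p = 0.0955, limma) did not pass.

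In the deletion MIG3 read 0.36, 0.08, -0.07, 0.05, 0.07 and 0.24 from 0 hours to 1 day. In wild type MIG3 read 0.97, -0.09, -1.32, 0.09, -1.02 and -0.75 at 0, 3, 5, 7 and 9 hours and 1 day. The deletion stayed within a narrow band, and wild type was high at 0 hours and low on 3 of the later arrays. MIG3 fell by 1.0 in wild type (SE 0.37, adjusted p = 0.0454, limma), a call that held in 6 of 17 alternatives and was lost without the 0-hour array (-0.47, adjusted p = 0.4769), the 9-hour array (-0.77, adjusted p = 0.1618) or the 1-day array (-0.91, adjusted p = 0.0854). Over both strains MIG3 passed without the 3-hour array of wild type (-0.82, adjusted p = 0.0262) or its 7-hour array (-0.71, adjusted p = 0.0214), against -0.55 with all arrays. The estimate was -0.10 in the deletion (SE 0.37, adjusted p = 0.856) and the difference between strains 0.90 (95% interval -0.22 to 2.02), which did not pass in the same limma fit.

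Within each strain 5 genes passed. In the deletion USV1, RGM1, MSN4 and GIS1 rose and MSN2 fell, where 39.5% of all genes passed, 19.8% higher and 19.6% lower. The USV1 call there is of a spot whose gene the strain lacks, and it held in only 7 of 17 alternatives. In wild type USV1, RGM1 and GIS1 rose and MSN2 and MIG3 fell, where 38.1% passed, 18.2% higher and 20% lower. With the 5-hour arrays counted as early, 0 of the 10 passed in the deletion, where 1.28% of all genes did, and 3 in wild type, where 15.3% did. With those arrays counted as late, 4 of the 10 passed in the deletion, where 31.3% of all genes did, and MSN2 alone in wild type, where 3.11% did. The counts of the 10 thus moved with those over all genes.

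Averaged over the 5 shared times, none of the 10 genes, USV1 included, passed for a difference between the strains by limma. In that fit 0 of 6062 genes passed (0%), with 260 at an unadjusted p under 0.05, or 4.29%. A plain paired test also passed 0 genes. The lack of a call does not show that the strains were equal. Of the 10, USV1 and MSN4 had an unadjusted p under 0.05. MSN4 was higher in the deletion at all 5 times, by 0.10, 1.41, 1.34, 0.96 and 0.39 in order of time, as were 4.32% of the 5573 genes measured at all of them. Its mean difference was 0.84 (95% interval 0.22 to 1.46, adjusted p = 0.814, limma), which ranked at place 117 from the top. MIG2 was higher in the deletion at all 4 times measured, from 0.17 to 0.74 (mean 0.44, 95% interval -0.15 to 1.03).

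The number of zinc finger genes at least 2-fold apart between the strains was 1 of 10 at 0 hours (3.75% of all genes), 7 of 10 at 5 hours (40.5%), 3 of 9 at 7 hours (8.04%), 2 of 9 at 9 hours (6.34%) and 3 of 10 at 1 day (18%). From 5 hours on the count includes USV1, the gene removed in the deletion, so its comparison with all genes is not free of the design. At 5 hours RGM1 stood 2.08 higher in the deletion, MIG1 1.98, MSN4 1.41, GIS1 1.36 and MIG3 1.25. COM2 stood 2.08 lower there (difference -2.08). These differences were at percentile 94.3 for RGM1, 93.7 for MIG1 and 7.91 for COM2 among all genes at that time. At 7 hours, 9 hours and 1 day USV1 had the lowest difference of all genes measured, at -3.26, -4.92 and -2.88. RGM1 changed sides, with 0.39 at 7 hours, -0.94 at 9 hours and 1.14 at 1 day. With 7 hours, 9 hours and 1 day fitted alone, USV1 passed (-3.69, adjusted p = 0.00082, limma), and the other 9 zinc finger genes did not, with 2 genes passing in all. USV1 is the deleted gene and helped to set the direction of the ratio, so its low places and this call are no finding.

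**Figure D3:**
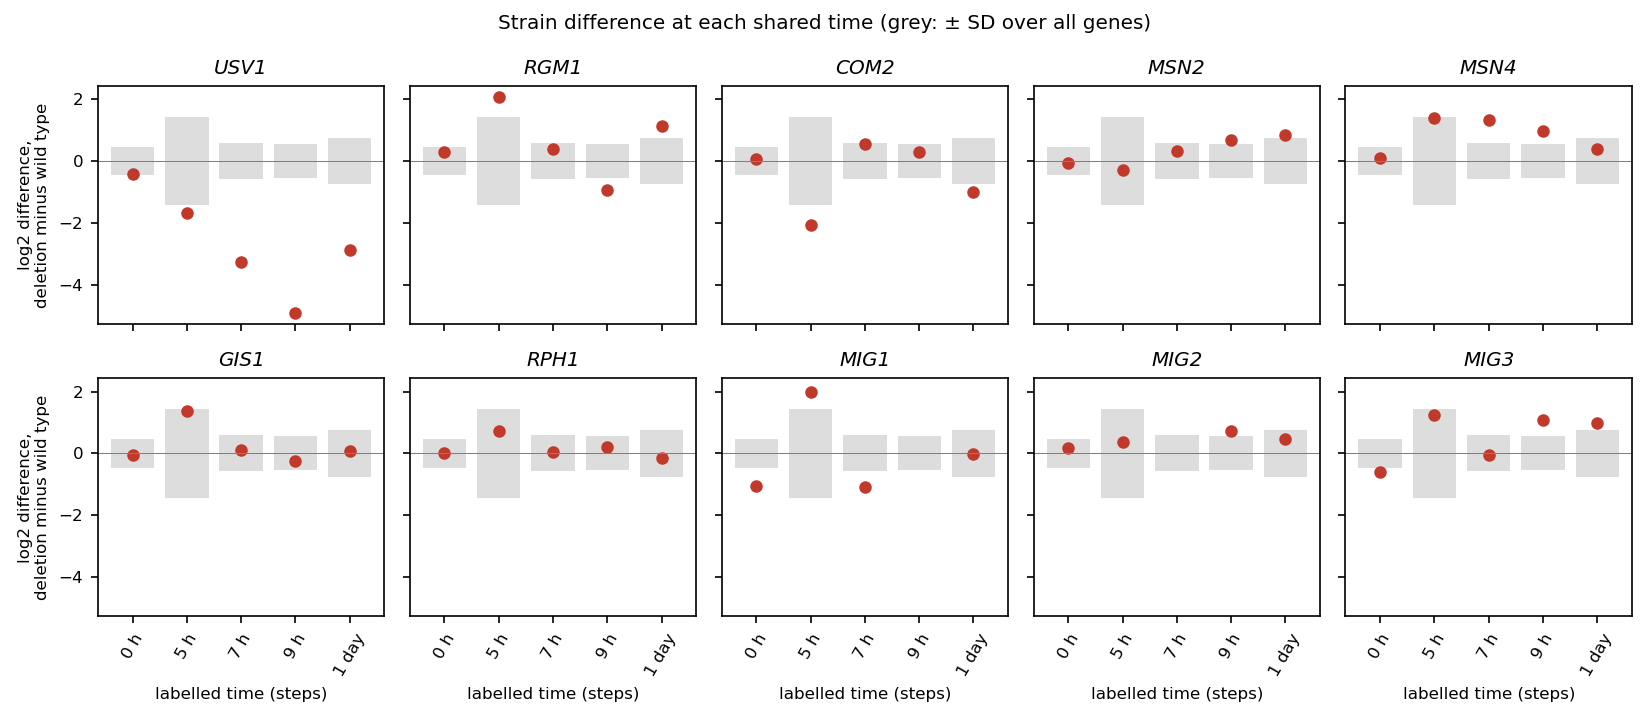
Deletion minus wild type (vertical axis, log2) at each shared time (horizontal axis, steps not to scale) as 1 red point per pair of arrays, over a grey bar of 1 SD of that difference over all genes on either side of 0. The grey bar is widest at 5 hours (SD 1.43), and outside it at the late times lie USV1 at every one of them, MSN4 at 7 and 9 hours and MIG3 at 9 hours and 1 day, among others.

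Differences between genes of the same group were followed on each array for 5 pairs, chosen with the values known and so given with no test. The log2 ratio of MSN4 minus that of MSN2 was between 1.75 and 3.56 on the 6 late arrays and between -0.72 and 0.80 on the 4 early ones. The late change of this difference, averaged over the strains, was 2.76. GIS1 minus RPH1 ran from 0.52 to 1.14 on the late arrays and from -0.88 to -0.19 on the early ones, a change of 1.18. In both pairs the late and early arrays did not overlap, which was also so for MSN2 alone and for GIS1 alone. Among single genes, 20.2% had all late arrays above all early ones and 20% had all below. The share over pairs of genes was not tested.

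RGM1 minus COM2 changed by 1.94, with the 1-day array of wild type at -0.57 among the early values. MIG1 minus MIG3 ran from 0.43 to 2.04 late and from -0.61 to 0.78 early, and MIG2 minus MIG3 from -0.47 to 0.26 late and from -1.16 to 0.48 early, so that the late and early arrays of these last 2 pairs overlapped.

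**Figure D4:**
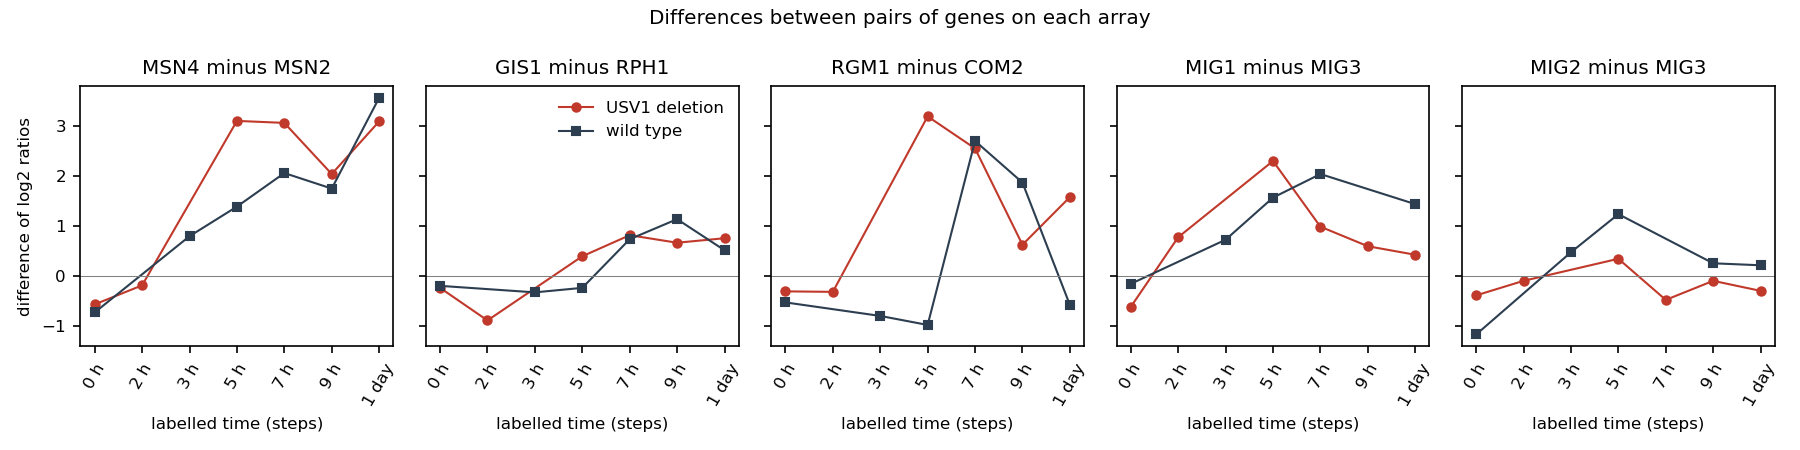
Difference between the log2 ratios of paired genes (vertical axis) at each labelled time (horizontal axis, steps not to scale), with the USV1 deletion as red circles and wild type as dark squares, 1 array per point. MSN4 minus MSN2 ends at 3.09 in the deletion and 3.56 in wild type, and RGM1 minus COM2 peaks at 3.19 in the deletion at 5 hours and at 2.70 in wild type at 7 hours.

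Across the 12 arrays RGM1 and GIS1 had the highest correlation of the 45 pairs (r = 0.887), followed by MSN4 with GIS1 (r = 0.794), and MSN2 with GIS1 had the lowest (r = -0.839). USV1 and MSN4 had r = 0.099. The arrays share the reference and the course, and no p is given. By Pearson's correlation, the genes most like USV1 over the 6 wild-type arrays were YMR084W, KKQ8, APE2, an aminopeptidase, YMR155W and YOR392W (r from 0.997 to 0.998), but 295 of 5549 genes reached 0.95 over so few arrays. In the deletion YMR084W rose by 1.61 (adjusted p = 0.0024), APE2 by 1.27 (adjusted p = 0.0039), YMR155W by 0.88 (adjusted p = 0.0251) and YOR392W by 1.40 (adjusted p = 0.0012), while KKQ8 stood at 0.73 (adjusted p = 0.103, limma).

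Over 12 arrays RGM1 was most like URA8, a CTP synthase (r = 0.983), GPA2, a G protein subunit of glucose sensing (r = 0.976), and CAT8, an activator of gluconeogenic genes (r = 0.975). GIS1 was most like PFU1 (r = 0.981), the acid trehalase gene ATH1 (r = 0.979) and YDL199C (r = 0.978). MSN2 was most like the acid phosphatase genes PHO12 (r = 0.979) and PHO11 (r = 0.962), near-identical genes whose spots can bind each other's transcripts, and SIM1 (r = 0.963). MSN4 was most like YLR177W (r = 0.930), STP4, itself a zinc finger gene (r = 0.921), and YDR338C (r = 0.913). The highest correlations were 0.933 or less for MIG1 (SLG1, a cell wall sensor, r = 0.933; AOS1, r = 0.901; PRM8, r = 0.901), MIG3 (NPL3, r = 0.901; YEL023C, r = 0.872; AFT1, the iron regulator, r = 0.870) and COM2 (PSY3, r = 0.875; YOR203W, r = 0.862; CSE4, r = 0.852). For MIG2 they were SEC7 (r = 0.875), PBP1 (r = 0.866) and HPC2 (r = 0.841), and for RPH1 NNF2 (r = 0.864), PST1 (r = 0.830) and YDL034W (r = 0.820). MIG1 and MIG2 were compared over 11 arrays.

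Genes around these regulators were described by lists of partners, upstream signals and targets, for which 96 of 99 entries matched the table. Of 21 tested stress response targets of Msn2 and Msn4, 20 rose late and 0 fell (median 2.21, against 0.06 for all genes, of which 27.6% rose and 27.1% fell), led by DDR2 at 4.78 (SE 0.25, adjusted p = 8.5e-09, limma) and the small heat shock gene HSP26 at 4.57 (SE 0.40). HSP26 and CTT1, which are among the 20, had served to read the direction of the ratio, so their signs are no finding. DDR2 read 5.48, 4.37 and 4.99 in the deletion and 5.28, 5.24 and 5.22 in wild type at 7 hours, 9 hours and 1 day. The targets rose while the MSN2 transcript fell. Within strains 20 of 21 rose in the deletion, where 19.8% of all genes rose, and 17 of 21 in wild type, where 18.2% did. GPH1 (glycogen phosphorylase) was the one that did not pass over both strains, at 0.22 (adjusted p = 0.321).

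Of 5 tested genes tied to Gis1 and Rph1, 4 rose (median 4.37), where 27.6% of all genes rose (median 0.06 over all). HSP26 is counted both here and among the stress response targets. GRE1 led at 6.36 (SE 0.41), followed by HSP26 and by SSA3, a chaperone gene with a post-diauxic shift element, at 4.37 (SE 0.28, adjusted p = 3.9e-08, limma). PHR1, the photolyase gene that Rph1 and Gis1 are known to repress, rose by 1.58 (SE 0.38, adjusted p = 0.003, limma). PHR1 read 0.11, 0.29, 3.74, 2.81, 1.78 and 1.41 in the deletion at 0, 2, 5, 7 and 9 hours and 1 day, and 0.49, 0.86, 0.71, 3.0, 2.43 and 0.69 in wild type at 0, 3, 5, 7 and 9 hours and 1 day. It was highest at 5 hours in the deletion and at 7 hours in wild type, and in wild type it was back within the early range at 1 day. DPP1 stood at -0.22 (adjusted p = 0.333).

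Of 13 tested genes repressed by Mig1, 10 rose and 1 fell (median 2.23), where 27.6% of all genes rose and 27.1% fell (median 0.06 over all). HXK1 is counted both here and among the stress response targets. The lactate permease gene JEN1 rose by 6.07 (SE 0.27, adjusted p = 2.1e-09, limma), and FBP1, for a gluconeogenic phosphatase, by 5.55 (SE 0.65). HXT2, for a hexose transporter known to need low glucose as well as release from Mig1, fell by 3.03 (SE 0.24, adjusted p = 1.6e-07, limma), a value that is uncertain because the HXT genes are alike in sequence. HXT2 read -2.02 in wild type at 5 hours, and so was already low on an array on which RGM1, GIS1 and MIG1 were not yet up.

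**Figure D5:**
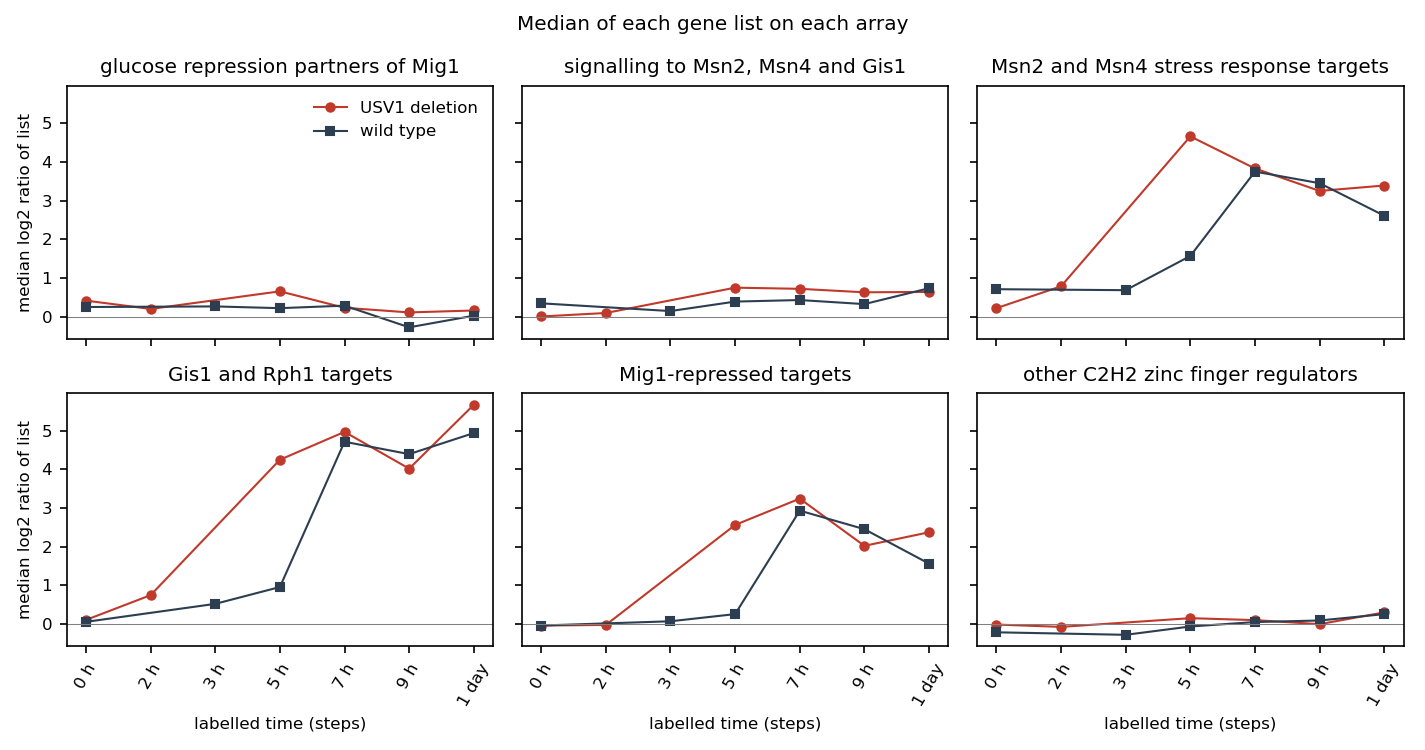
Median log2 ratio of each gene list (vertical axis) at each labelled time (horizontal axis, steps not to scale), with the USV1 deletion as red circles and wild type as dark squares, 1 array per point. The target lists reach 4.66, 4.25 and 2.56 in the deletion at 5 hours, against 1.57, 0.95 and 0.26 in wild type, and the other 3 lists stay between -0.28 and 0.75.

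Among 12 tested partners of Mig1 in glucose repression 2 rose and 2 fell (median -0.10), where 54.7% of all genes passed. HXK2, the hexokinase that acts with Mig1 in the nucleus, fell by 1.99 (SE 0.36, adjusted p = 0.0003, limma), and TUP1, the corepressor recruited by Mig1, fell by 1.57 (SE 0.22, adjusted p = 2.8e-05). TUP1 read 0.65, 0.30, -0.79, -1.22, -0.60 and -0.62 in the deletion, and 0.56, -0.04, -0.15, -1.60, -1.48 and -1.72 in wild type, in order of time. All of its late arrays lay below all of its early ones, as for 20% of all genes. SIP2, a subunit of the Snf1 complex, rose by 1.01 (adjusted p = 0.0036), and MSN5, the exporter of Mig1 and Msn2, by 0.60 (adjusted p = 0.0292).

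Of 14 tested genes that signal to Msn2, Msn4 and Gis1, 7 rose and 1 fell (median 0.43), a count of 8 of 14 that is close to the 54.7% of all genes. YAK1, a kinase opposed to protein kinase A, rose by 1.57 (SE 0.21, adjusted p = 2.7e-05, limma), TPK2, for a catalytic subunit of protein kinase A, by 1.36 (SE 0.28, adjusted p = 0.00099), and BMH1, for a 14-3-3 protein, fell by 0.92 (SE 0.21, adjusted p = 0.002). YAK1 was highest in the deletion at 5 hours (3.19), when it read 0.08 in wild type.

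Among 24 other tested C2H2 zinc finger genes 8 rose, 4 fell and 12 did not pass (median 0.32), against 4, 1 and 5 of the 10, and both shares are near the 54.7% of all genes that passed. STP4 rose by 2.45 (SE 0.29) and ADR1, an activator of genes for ethanol and fatty acid use, by 1.53 (SE 0.20). RIM101, for the regulator of the alkaline response, fell by 2.61 (SE 0.22, adjusted p = 3.1e-07, limma), and PZF1, for the factor TFIIIA of 5S RNA transcription, by 0.94 (SE 0.27, adjusted p = 0.0084). No gene of the 6 lists passed for a difference between the strains in its late change by limma, and neither did any other gene (0%). In that fit 238 of 5698 genes, or 4.18%, had an unadjusted p under 0.05.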

How the data were processed

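The authors deposited 1 log2 ratio per gene and array, with no statement of scanner software, background correction, spot filter, normalization or log base in the labels. Base 2 was taken from the range of the values. Deposited medians lay between -0.11 and 0.03 and the SD over genes between 0.49 and 1.63, and precision is limited by how few arrays there are. The table had 0 columns from elsewhere. Names came from a RefSeq table of assembly R64, which matched 5592 of 6100 genes.

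Arrays were centred to a median of 0. The late change came from limma 3.58.1 (R 4.3.3, lmFit and eBayes) on 10 arrays in 4 cells of strain and phase, for genes with both early values and at least 2 of 3 late values per strain. The strain difference came from the 10 arrays at the 5 shared times, with time as a factor, for genes with 4 or more of 5 values in each strain. Benjamini-Hochberg adjustment ran over every gene in a fit, with calls at 0.05. Intervals are 95% intervals of the moderated fit. The genes, lists, late and early times and pairs were chosen with earlier results of these data known. Named genes were the 10, the 3 genes most correlated with each (for USV1 the 5 over the wild-type arrays), up to 2 per list and direction with the largest late change, PHR1 and SSA3. GPH1, DPP1 and single values of others were added after their values were seen. On simulated data of 5362 genes, with 50 genes shifted by each log2 size of 1, 2, 3 and 4, the late change recovered 35, 48, 49 and 50, the difference between strains in it 3, 31, 43 and 46, and the strain difference 17, 40, 48 and 50, with 10, 10 and 9 false calls. The simulated noise was normal and independent between genes and arrays, unlike neighbouring times of 1 course. These counts therefore check the code and do not give the power or the false calls on the real arrays. In the real strain fit USV1 at -2.63 did not pass (adjusted p = 0.814, limma). Alternatives were other array scalings, complete genes only, a robust prior, other uses of the 5-hour arrays, each array left out, and for the strain difference a fit without time, a plain paired test and the late times alone.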

Additional observations from a re-analysis of the deposited data

How the results depend on the processing

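Few arrays, with neighbouring times in place of replicates, limit every value, and depth or signal over background is not known from these files. The labels give no replicate numbers, so no replicate block was fitted. The strain difference pairs the strains by shared time, and a plain paired test over the 5 shared times also passed 0 genes. The rises of USV1, RGM1 and GIS1 and the fall of MSN2 over both strains passed in all 17 alternatives. For USV1 this averages in its spot in the deletion, which lacks the gene and where the call held in 7 of 17. The sign changes below include estimates near 0 (COM2, RPH1) and larger ones (MIG1 at 0.58 and the USV1 difference at -1.99), and the cause was not tested.

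With values as deposited, the late change of COM2 was -0.035 over both strains and -0.1017 in the deletion, and the RPH1 difference between strains was -0.0317. After quantile normalization the late change of RPH1 was -0.0843 over both strains, -0.0923 in the deletion and -0.0763 in wild type, and that of MIG1 -0.0727 over both and -0.1597 in wild type. The differences between strains in the late change were then -0.016 for RPH1, 0.1741 for MIG1 and 0.3433 for USV1, with 1 gene passing against 0. With arrays scaled to a common spread RPH1 was at -0.0749 over both strains, -0.0744 in the deletion and -0.0753 in wild type, MIG1 at -0.0154 in wild type, and the differences at 0.1297 for MIG1 and 0.0935 for USV1.

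With the 5-hour arrays counted as early, 1811 genes passed over both strains (3119 without them), 78 in the deletion (2249) and 929 in wild type (2173), with 0 and 3 of the 10 zinc finger genes in the deletion and wild type (5 and 5). RPH1 was then at -0.08 and MIG1 at -0.1533 in the deletion, COM2 at -0.1267 in wild type, and the differences at -0.28 for GIS1, 0.62 for COM2 and -0.22 for RPH1. Counted as late, they left 177 genes and 1 of the 10 in wild type, with COM2 at -0.0738 over both strains and -0.3675 in the deletion, and differences of 0.5542 for MIG1 and 0.2925 for RGM1. With 7 hours, 9 hours and 1 day alone in the strain difference, 2 genes passed against 0, and 1 of the 10, and GIS1 was at -0.02.

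Leaving out 1 array at a time, the genes passing ran from 1283 (without the 0-hour deletion array; 1458 without the 2-hour one) to 2390 in the deletion, and from 1230 (without the 0-hour wild-type array) to 2349 in wild type. COM2 ran from -0.2467 to 0.3258 over both strains, -0.165 to 0.27 in the deletion and -0.495 to 0.65 in wild type. In the deletion MIG3 ran from -0.24 to 0.04 and MIG1 from -0.0667 to 1.0433. In wild type RPH1 ran from -0.065 to 0.27 and MIG1 from -0.04 to 1.4. The differences between strains ran from -0.6483 to 0.4967 for COM2, -0.13 to 0.215 for RPH1, -0.9117 to 0.5283 for MIG1 and -0.5517 to 0.1333 for RGM1. With 1 shared time left out, the strain difference ran from -0.025 to 0.38 for GIS1 and -0.7267 to 0.2967 for MIG1.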
